A study of Mus musculus with 4 samples.

Results

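Paneth cells sit at the base of small intestinal crypts and release antimicrobial proteins into the crypt lumen. The genes described here encode such products, namely alpha-defensins (Defa genes, called cryptdins in mice), the Paneth cell lysozyme Lyz1 and the lectin intelectin 1 (Itln1), together with Mmp7, which encodes the protease matrilysin. They were chosen by annotation, as every probe set assigned to Lyz1, Mmp7, Itln1 or Ang4 or to a symbol starting with Defa, but the group was proposed with the null and control values of these arrays already known. Values from that contrast are therefore a description of the members and support nothing further. The rule found 8 probe sets naming 7 genes, of 22626 probe sets and 12393 genes on the array. Of the 8 probe sets, 3 belonged to Lyz1, 1 each to Mmp7 and Itln1, and 3 to alpha-defensins (Defa31, Defa3, and 1 shared by Defa30 and Defa24). No probe set in the annotation used was assigned to Ang4, which encodes an antimicrobial ribonuclease, so it was not analysed here.

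Expression was measured on Affymetrix arrays, 1 per animal, in small intestine from 2 HNF4 null and 2 control mice, all 1 month old. HNF4 is a nuclear receptor family of gut and liver epithelium. Both null animals, a male and a female, had a loxP-flanked HNF4 allele over a minus allele, plus Cre driven by the villin promoter, which acts in gut epithelium. The control female was loxP over wild type with villin Cre, and the control male was loxP over minus without Cre. All 4 animals thus carried a loxP allele, the minus allele was shared by the control male with both nulls, and Cre was shared by the control female with both nulls. In the controls, sex and genotype cannot be told apart. The labels give neither the intestinal segment nor whether epithelium was isolated, and they do not name the HNF4 paralogue.

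Mouse pro-defensins are stored in Paneth cell granules and cut to their active form by matrilysin. In mice, Wnt signalling through beta-catenin and TCF factors is known to drive Paneth cell genes, with defensin genes and Mmp7 among them. Lysozyme cleaves bacterial cell walls, and intelectin 1 binds sugars on microbial surfaces. Alpha-defensin genes form a family of near copies: the RefSeq table of assembly GRCm38.p6 listed 40 Defa symbols, all on chromosome 8, of which 29 were protein coding. The array annotation named 4 of them. Probe sets with the suffix _x_at include probes that may match other transcripts, and the 2 bright defensin probe sets and 2 of the 3 Lyz1 probe sets carry it. Their values are therefore uncertain as measures of a single gene.

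The windows around the annotated gene starts are shown because some members are known Wnt targets. Whether any string in them goes with the direction of a member's difference was not tested. Each window runs from 250 bases before the start to 50 after it, 5′ to 3′ along the gene, from RefSeq on GRCm38.p6. Capitals mark the string ATCAAAG, a common form of the TCF and LEF binding site. Windows were found for 2 of the 4 named defensin genes, and for Mmp7 the first of its 2 windows is shown.
Mmp7, chr9:7691840-7692139, plus strand: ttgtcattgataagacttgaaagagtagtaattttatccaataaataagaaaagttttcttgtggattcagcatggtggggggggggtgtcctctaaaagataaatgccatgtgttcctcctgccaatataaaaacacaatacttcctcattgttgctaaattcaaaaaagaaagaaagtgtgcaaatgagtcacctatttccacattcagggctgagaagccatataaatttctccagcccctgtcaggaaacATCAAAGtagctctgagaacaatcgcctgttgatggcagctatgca
Defa31, chr8:21191323-21191622, plus strand: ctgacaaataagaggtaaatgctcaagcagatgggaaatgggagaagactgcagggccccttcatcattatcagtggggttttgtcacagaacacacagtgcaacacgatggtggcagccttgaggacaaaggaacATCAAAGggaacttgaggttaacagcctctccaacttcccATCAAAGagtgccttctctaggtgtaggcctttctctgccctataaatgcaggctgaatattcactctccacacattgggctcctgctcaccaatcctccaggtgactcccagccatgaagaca
Defa30, chr8:21134400-21134699, plus strand: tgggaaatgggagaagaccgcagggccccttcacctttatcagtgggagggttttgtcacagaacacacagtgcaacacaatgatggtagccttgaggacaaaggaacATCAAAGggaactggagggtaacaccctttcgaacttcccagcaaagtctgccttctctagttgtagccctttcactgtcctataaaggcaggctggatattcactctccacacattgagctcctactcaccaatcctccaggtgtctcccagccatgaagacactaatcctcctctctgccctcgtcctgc
Lyz1, chr10:117292819-117293118, minus strand: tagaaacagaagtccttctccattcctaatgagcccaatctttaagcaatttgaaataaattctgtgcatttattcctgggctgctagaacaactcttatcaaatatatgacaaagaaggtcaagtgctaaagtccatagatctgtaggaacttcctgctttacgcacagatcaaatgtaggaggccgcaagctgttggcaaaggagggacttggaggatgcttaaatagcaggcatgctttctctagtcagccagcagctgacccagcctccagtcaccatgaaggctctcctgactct
Itln1, chr1:171535245-171535544, minus strand: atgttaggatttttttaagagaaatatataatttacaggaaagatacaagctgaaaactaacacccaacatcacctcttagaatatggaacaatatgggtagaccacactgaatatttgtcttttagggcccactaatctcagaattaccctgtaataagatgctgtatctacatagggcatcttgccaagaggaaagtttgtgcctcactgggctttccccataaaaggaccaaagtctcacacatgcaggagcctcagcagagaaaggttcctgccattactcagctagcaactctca

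The string ATCAAAG, read on both strands, occurred in the Mmp7 window shown, beginning at base 5 of the transcript. The second Mmp7 window, not shown, held it at 247 bases before its start. In the Defa31 window it lay at 114 and 74 bases before the start. The Defa30 window held it at 142 bases before the start, and the Lyz1 and Itln1 windows held no match. It was present in 13 of the 16 windows of Defa genes in the table, against 3.73% of all 32851 windows of the same length. The Defa windows are not independent of one another, since aligned identity to Defa31 was between 61.6% and 100% (median 76.3%) for the other 15 Defa windows. Identity to Defa31 was 49.6% to 51.4% for Mmp7, Lyz1 and Itln1. The string TATAAA, the TATA box, was in 15 of 16 Defa windows and in that of Mmp7, against 13.6% of all windows. The string CAAAGTCCA, a form bound by HNF4, was in none of the 16 Defa windows or the Mmp7, Lyz1 and Itln1 windows, and in 0.475% of all. The nuclear receptor core AGGTCA was in the Lyz1 window, in none of the other windows shown or of the 16 Defa windows, and in 16.3% of all. Shorter or overlapping strings were also counted. TCAAAG, contained in ATCAAAG, was in 16% of all windows, 13 Defa windows and that of Mmp7. CAAAG, contained in the TCF and HNF4 strings, was in 53.9% of all windows, 13 Defa windows and those of Mmp7, Lyz1 and Itln1. CAAAGG was in 20.3% of all windows, 6 Defa windows and that of Lyz1. ATCAAAG was chosen for display after these 7 strings had been counted, and a match in a window does not show that a factor binds there.

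**Figure D1:**
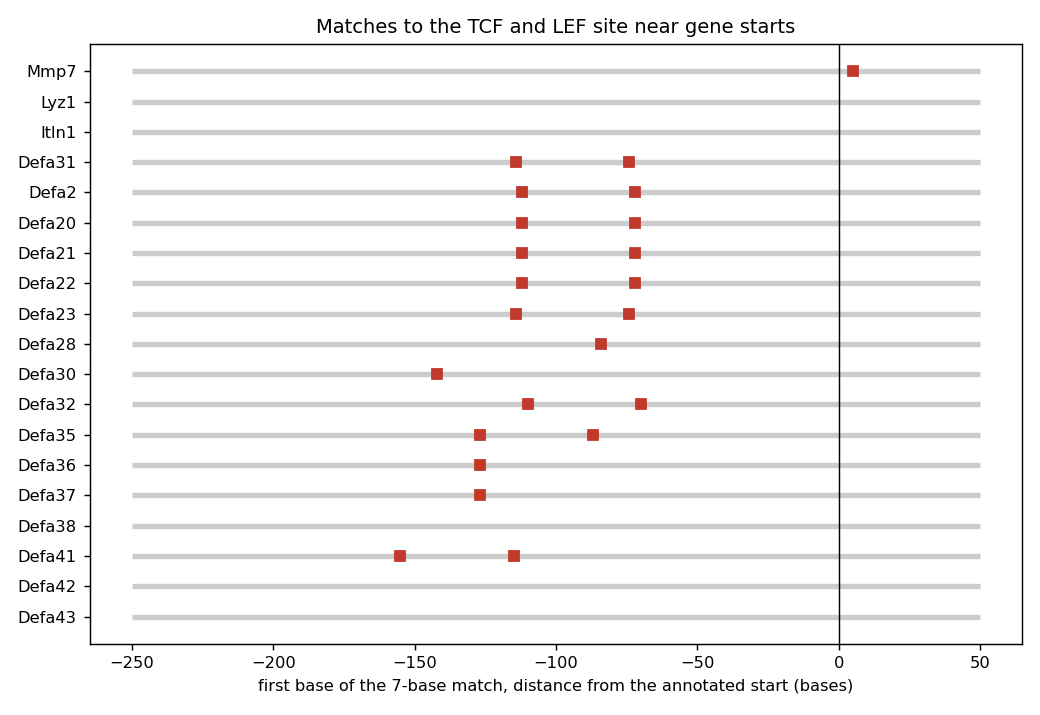
Position of each ATCAAAG match on either strand (squares) in the window of each gene (grey line), in bases from the annotated start at 0. Matches lie before the start in 13 of 16 Defa windows, at base 5 of the transcript in the first Mmp7 window, and are absent from the Lyz1 and Itln1 windows. The second Mmp7 window is not drawn.

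The protease gene differed most among the members. Mmp7 (1449478_at) had deposited intensities of 1383 in the null male and 1180 in the null female, against 459 in the control female and 659 in the control male. Both null values were above both control values, and the lower null value was well clear of the higher control value. After normalization it averaged 10.35 ± 0.14 in null and 9.13 ± 0.38 in control animals (SD, n = 2 each), in log2 units after 16 was added to the intensity. The null minus control difference was 1.22 (SE 0.21, 95% interval 0.72 to 1.72), which is 2.33-fold on that scale. It was 1.05 between the 2 males and 1.39 between the 2 females, so either pair alone gave a difference of at least 1. In bulk tissue, a larger number of cells of a type and more RNA per cell cannot be told apart.

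The alpha-defensin probe sets did not share that size of difference. Defa31 (1422934_x_at) had deposited intensities of 9850 in the null male and 9573 in the null female, against 7312 in the control female and 8406 in the control male. Both null values were above both control values, and by brightness among all probe sets it ranked 2 in the null male and 3 in the null female, against 9 in the control female and 5 in the control male. Its difference was 0.31 (SE 0.10, 95% interval 0.07 to 0.55), with 0.19 between males and 0.44 between females. The control female bore on that size, since the difference was 0.15 without it.

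The probe set shared by Defa30 and Defa24 (1450631_x_at) read 7497 in the null male and 6506 in the null female, against 7111 in the control female and 7022 in the control male. The control values lay between the 2 null values, so the groups overlapped. Its difference was 0.06 (SE 0.08, 95% interval −0.13 to 0.26), and the sign was opposite between males (0.14) and between females (−0.02). The interval includes 0, which does not show that the groups had the same level. The difference was 0.13 without the null female, and it was −0.02 without the null male and −0.02 without normalization between arrays. Defa3 (1422802_at) was dim, at 2.85 in the null male and 20.4 in the null female, against 7.06 in the control female and 12.1 in the control male. It was the 1 member that did not pass the filter on dim probe sets, and its values overlapped and are not shown to lie above background.

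Lysozyme, in contrast to Mmp7, was lower in both null animals. The brightest Lyz1 probe set (1436996_x_at) read 6824 in the null male and 6723 in the null female, against 8002 in the control female and 7870 in the control male. The second (1439426_x_at) read 6133 and 5996 in the nulls (male, female), against 6944 and 6827 in controls (female, male), in the same order. The remaining Lyz1 probe set (1450822_at), which is far dimmer and lacks the _x_at suffix, read 104 and 171 in the nulls (male, female), against 214 and 238 in controls (female, male). Both null values were below both control values on all 3 probe sets. The differences were −0.21 (SE 0.08, 95% interval −0.40 to −0.02), −0.12 (SE 0.08, 95% interval −0.31 to 0.07) and −0.65 (SE 0.23, 95% interval −1.21 to −0.09), in that order. All 3 were below 0 between males (−0.14, −0.19 and −0.95) and between females (−0.27, −0.05 and −0.34). Without the null male the second was −0.06 and the dimmest −0.42, and without the null female the second was −0.19. The probe sets of this 1 gene thus shared a direction while their sizes ranged from 1.09-fold to 1.57-fold lower in null animals.

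Lyz1 has a close relative, Lyz2, the lysozyme of macrophages, which is the neighbouring protein-coding gene on chromosome 10. Whether the _x_at probes also detect it was not tested. The Lyz2 probe set read 2795 in the null male and 2575 in the null female, against 2884 in the control female and 3299 in the control male, a difference of −0.17 (SE 0.11, 95% interval −0.43 to 0.09). The list of 8 myeloid genes that includes Lyz2 had summed intensities of 3495 and 3462 in the nulls (male, female), against 3537 and 3954 in controls (female, male). Most of each sum was Lyz2 itself, so the sums say little about the other genes of the list. The gene S100a9 was at or below 0 on at least 1 array. Of the 5 genes of that list that passed the filter, 2 were above 0 and 3 below, with a median of −0.06. Cd14, a bacterial sensor of myeloid cells, was at 0.83 (SE 0.40) and Csf1r, a receptor of macrophages, at 0.19 (SE 0.19). Cd14 read 118 in the null male and 341 in the null female, against 111 in the control female and 114 in the control male. Its difference was thus 0.175 between males and 1.49 between females. The part of these cells in the Lyz1 values was not tested.

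Itln1 (1418165_at) read 6040 in the null male and 5793 in the null female, against 4976 in the control female and 4830 in the control male. The groups did not overlap. Its difference was 0.26 (SE 0.08, 95% interval 0.07 to 0.45), with nearly the same value between males (0.27) and between females (0.25).

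**Figure D2:**
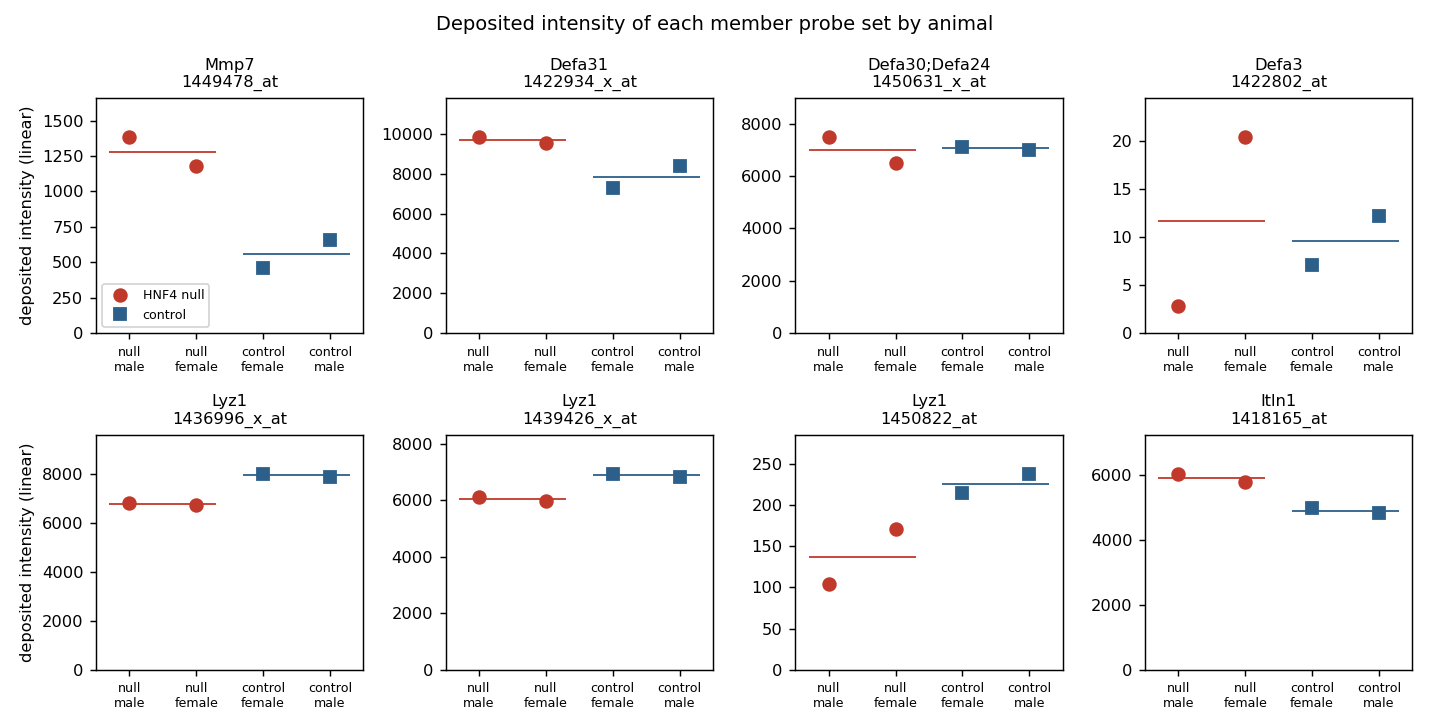
Deposited intensity (linear scale from 0) of each member probe set in the 2 null animals (circles) and the 2 controls (squares), named by sex under the axis, with a line at each group mean. Null values lie above control values for Mmp7, Defa31 and Itln1 and below them for the 3 Lyz1 probe sets, and overlap for Defa3 and the probe set of Defa30 and Defa24.

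Of the 7 member probe sets that passed the filter, 4 had a difference above 0 and 3, all of Lyz1, below 0. Their median was 0.06, against −0.01 over all 15838 probe sets tested. This median counts probe sets, so Lyz1 enters it 3 times. In 3 members both null values were above both control values, as in 13.5% of all probe sets tested. In 3 members, the Lyz1 probe sets, both null values were below both control values, as in 16.3% of all probe sets tested. limma, a linear model with variances moderated across all probe sets, called none of the 7 members at an adjusted p under 0.05, where it called 2 of all probe sets tested (0.0126%). The smallest adjusted p over the members was 1 after rounding. With sex as a block, Mmp7 passed in limma at an adjusted p of 0.0127, while the other 6 members did not, and that fit called 29 of all probe sets tested (0.183%). These counts describe members proposed from the same contrast.

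**Figure D3:**
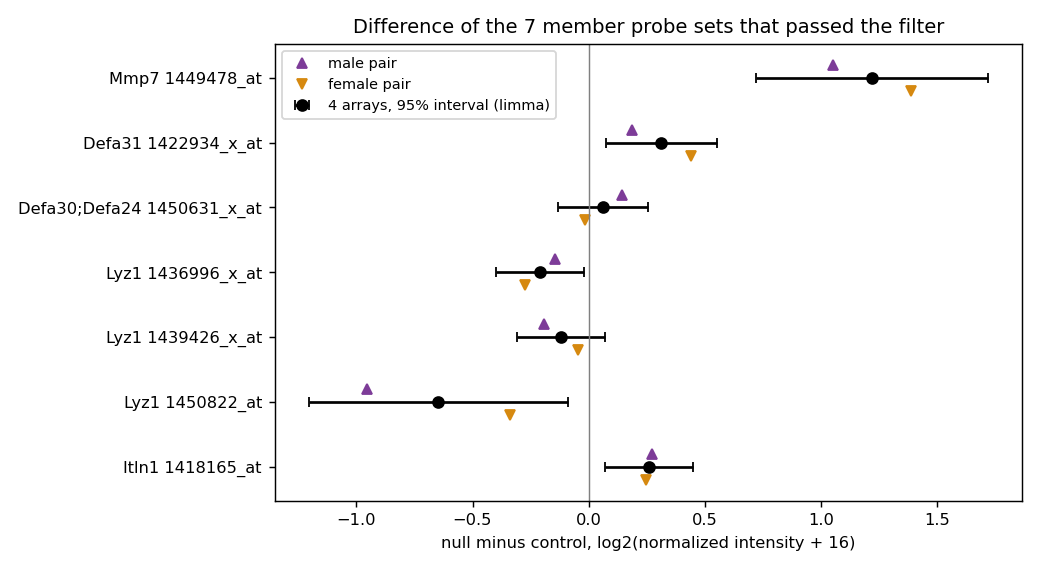
Null minus control difference on the log2(normalized intensity + 16) scale for the 7 members that passed the filter, over 4 arrays with its 95% interval (circles), within the male pair (upward triangles) and within the female pair (downward triangles). Mmp7 stands at 1.22, Defa31 and Itln1 at 0.31 and 0.26, and the 3 Lyz1 probe sets between −0.65 and −0.12.

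Several members lay close to the top of the scale. On every array, 5 of the 8 member probe sets were among the 50 brightest, and the brightest value of any probe set was 10184 to 11137 per array. Whether values near that top were compressed was not tested. Quantile normalization sets such values by rank, and the probe set of Defa30 and Defa24 received the same value of 12.75 in both controls, where it ranked 13 by brightness. Mmp7 lay well below that top, at rank 480 in the null male and 558 in the null female, against 1601 in the control female and 1084 in the control male. With no normalization between arrays, with scaling to a common median and with other pseudocounts, its difference was 1.15 to 1.25. Over the same settings it was 0.31 to 0.36 for Defa31 and 0.26 to 0.32 for Itln1. For the Lyz1 probe sets it was −0.23 to −0.17 on the brightest, −0.18 to −0.12 on the second and −0.70 to −0.51 on the dimmest.

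**Figure D4:**
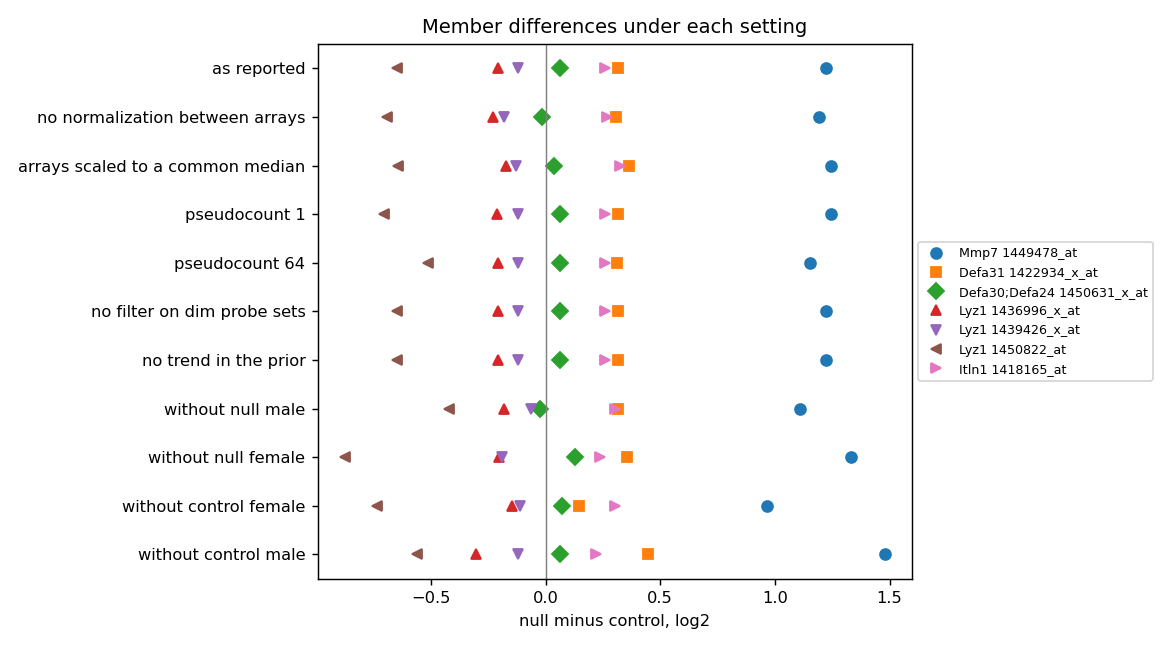
Null minus control log2 difference (horizontal axis) of each member that passed the filter under each setting (rows), with 1 symbol per probe set. Mmp7 lies between 0.96 and 1.48 in every row, and the probe set of Defa30 and Defa24 is the 1 member whose sign turns.

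The comparison of male with female animals, with the null or control group in the model, was not used in choosing the members. None of the 7 members passed in limma (adjusted p from 0.506 to 0.917), where 0.53% of all probe sets tested did. Mmp7 had the male minus female difference farthest from 0, at 0.37 (SE 0.15, 95% interval 0.04 to 0.70, adjusted p = 0.506 in limma), and was higher in the male than the female of the control group and of the null group. Defa31 differed by 0.16 (95% interval −0.03 to 0.35), and the others lay between −0.13 and 0.08. The sign for Itln1 and for the 2 bright Lyz1 probe sets was below 0 as reported and above 0 with scaling to a common median. Sex cannot be told apart here from whatever the adjacent numbers of the animals stand for. In the controls it also goes with genotype, for which the group term does not adjust.

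Other products of Paneth cells had differences of both signs. Of 9 such genes listed, 8 had a probe set and all 8 passed the filter, with 5 differences above 0, 3 below 0 and a median of 0.30. Pla2g2a, a secreted phospholipase of Paneth cells, was the 1 gene of the list that limma called, and it fell. It read 292 in the null male and 550 in the null female, against 4907 in the control female and 5767 in the control male (difference −3.63, SE 0.26, adjusted p = 0.0277 in limma). It missed the threshold in limma without the control female (adjusted p = 0.0768), without the control male (0.242) and without a trend in the prior (0.228), with differences of −3.75, −3.51 and −3.63. With 1 control left, the spread comes from the 2 nulls alone and the lone control is assumed to vary like them. It passed in limma without the null male (adjusted p = 0.00052), without the null female (0.000428) and with sex as a block (1.57e-05). Mptx1, a pentraxin expressed in Paneth cells, read 2279 in the null male and 2463 in the null female, against 1434 in the control female and 697 in the control male. Its difference was 1.25 (SE 0.31), with 1.66 between males and 0.84 between females. With sex as a block, which leaves 1 residual degree of freedom, Mptx1 passed in limma at an adjusted p of 0.0212. The list was chosen with earlier results of these data known, so its p-values are a description only. Among the 8 genes of the list, 7 had the same sign in both pairs, as did 6 of the 7 members and 48.2% of all probe sets tested.

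Of 16 regulators and position genes of Paneth cells, 14 had a probe set and 8 passed the filter. Of these, 7 were above 0 and 1 below 0, with a median of 0.26, and limma called none. Cd24a, a surface protein of Paneth and other crypt cells, was at 0.62 (SE 0.13) on its brightest probe set. Its values there were 1978 in the null male and 1806 in the null female, against 1159 in the control female and 1366 in the control male, which did not overlap. Spdef, a transcription factor of goblet and Paneth cell maturation, was at 0.57 (SE 0.29), from 36.7 and 74.7 in the nulls (male, female), against 37.8 and 27.0 in controls (female, male), which did overlap on the deposited scale.

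Relatives of Mmp7 and of the defensins were mostly dim. Of 20 other matrix metalloproteinases and inhibitors, 18 had a probe set and 8 passed the filter, with 6 above 0, 2 below 0 and a median of 0.10, and limma called none. The largest differences were those of Mmp9, a gelatinase, at 0.59 (SE 0.23) and Timp3, a metalloproteinase inhibitor, at 0.57 (SE 0.29), and other probe sets of these genes gave −0.02 for Mmp9 and −0.25 to 0.11 for Timp3. Of 14 beta-defensin genes, a separate defensin family, 4 passed the filter, with 3 above 0 and none called in limma. Defb2 was at 0.48 (SE 0.24) and Defb11 at 0.36 (SE 0.31).

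Markers of neighbouring epithelial cells were set beside the members in the same way. Of 8 goblet cell genes, 7 had a probe set, and 6 of those were above 0 with a median of 0.37 and none called in limma. Their summed intensities were 25673 in the null male and 20858 in the null female, against 18296 in the control female and 18844 in the control male, and none was at 0. Agr2, a disulfide isomerase of mucin folding, was at 0.62 (SE 0.14) and Spink4, a secreted goblet cell peptide, at 0.60 (SE 0.13). Of 10 absorptive enterocyte genes, 8 had a probe set, and 6 of those were below 0 with a median of −0.13 and none called in limma. Their summed intensities were 38751 and 36595 in the nulls (male, female), against 40270 and 40370 in controls (female, male), and none was at 0. Anpep, an aminopeptidase of the brush border, was at −0.39 (SE 0.14) and Apoa4, an apolipoprotein, at 0.27 (SE 0.11). A further probe set gave 0.10 for Apoa4 and another 0.27 for Agr2, and on both of them the groups overlapped. The part of these shifts in the member values was not tested.

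**Figure D5:**
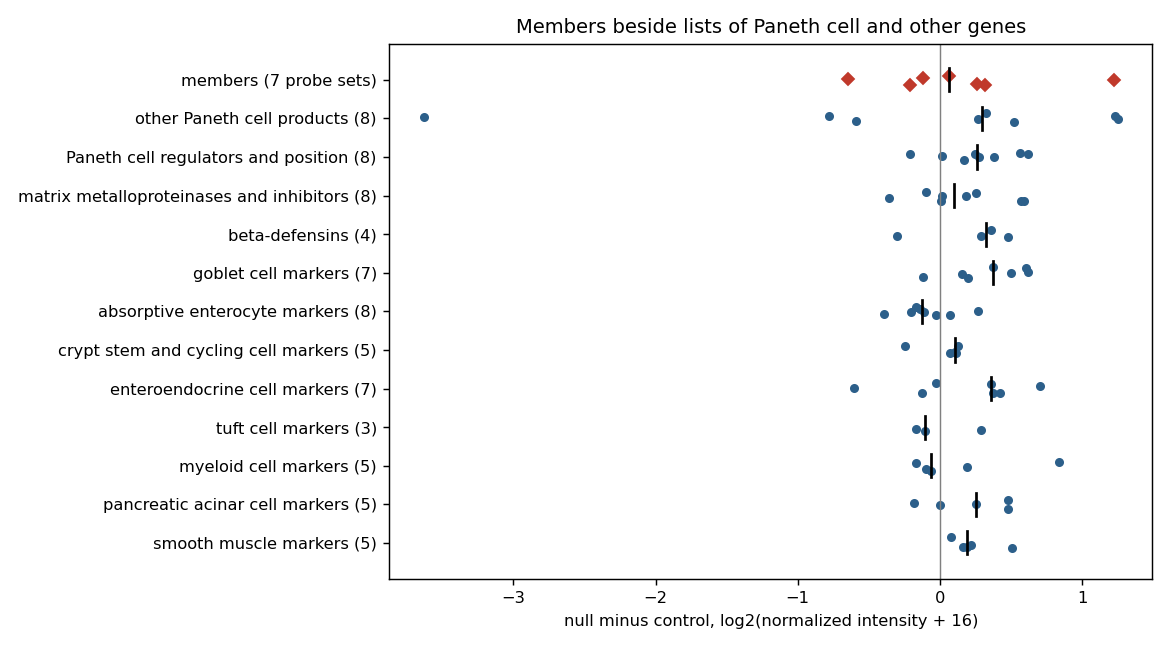
Null minus control difference on the log2(normalized intensity + 16) scale of the 7 members that passed the filter (diamonds) and of the genes of each list that passed it (circles, number in brackets), with a bar at each median. Members are drawn per probe set, while each list gene is drawn once, by its brightest probe set. The members below 0 are all probe sets of Lyz1. The other Paneth cell products lie on both sides of 0, with Pla2g2a at −3.63.

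The profile of Mmp7 over the 4 arrays was set beside those of 14425 other single-gene probe sets that passed the filter. Likeness was the Euclidean distance between log2 values centred on their own mean, on which scale Mmp7 itself lies 1.29 from a flat profile. The nearest were Gng3, a G protein subunit, at 0.25, Ids, a lysosomal sulfatase, at 0.38, the tight junction gene Cldn1 at 0.40, the receptor gene Tnfrsf14 at 0.41 and Cyth3 at 0.42. Gng3 read 94.1 in the null male and 95.1 in the null female, against 27.0 in the control female and 33.0 in the control male. The probe sets of Ids, Cldn1 and Tnfrsf14 were dim, with values from 11.1 to 54.4 over the 4 arrays, not shown to lie above background. None of the 5 is a Paneth cell gene of the lists, and other probe sets of the same genes differed by −0.19 to 0.23 for Cldn1, −0.04 to 0.37 for Ids and 0.03 for Cyth3. Such a ranking over 4 arrays is a description only.

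Array medians were 43.2 in the null male and 53.3 in the null female, against 50.2 in the control female and 49.5 in the control male. Correlations between arrays after normalization were 0.927 to 0.963, and the null male had the lowest with each other array. Hnf4a had differences from 0.08 to 0.32 on its 4 probe sets and Hnf4g 0.12 and 0.16 on its 2, none called in limma, and whether these lie in the deleted part is not given in the sources used here. The deposited values carry no detection calls, so how precise a single value is cannot be stated, and the few arrays limit that of each comparison.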

How the data were processed

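Total RNA of 4 small intestines was labelled with biotin for Affymetrix arrays, per the labels. The deposited table holds 1 linear intensity per probe set and array. Which software, background correction and scaling made these values is not given in the sources used here. Gene names came from the platform annotation, in which 20380 of 22626 had 1 gene, 691 several and 1555 none.

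Intensities were quantile normalized, floored at 0 and converted to log2(value + 16). Probe sets in the lowest 30% of mean log2 value were dropped, leaving 15838. Null was compared with control in limma 3.58.1 (R 4.3.3, lmFit, and eBayes with an intensity trend) without covariates. Male was compared with female with the null or control group as covariate. Both tests were two-sided with Benjamini-Hochberg adjustment across the 15838 and a threshold of 0.05. The fit was also run on simulated data with shifts larger than any member difference, which says nothing about differences of the members' size. Differences on this scale understate those of dim probe sets. The p-values rest on the spread between single animals, with variances moderated across all probe sets. Pairwise identity used global alignment in Biopython 1.88.

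All member probe sets are named. Of each list, the 2 genes with the largest absolute difference among those kept are named, each by its brightest probe set, and Lyz2 was added after its values were seen. The members and lists were chosen with earlier results of these data known. Alternatives were other normalizations, pseudocounts of 1 and 64, no filter, no trend, sex as a block, each pair alone and leaving out each animal.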

Additional observations from a re-analysis of the deposited data

Results flagged for a closer look

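For 14 of the probe sets checked, the null minus control log2 difference had opposite signs in the male and the female pair. The further Agr2 probe set did so as well. Each pair is 1 null and 1 control animal. The difference between the pairs was not tested. Among the members these were Defa3, at −0.36 between males and 0.57 between females, where the probe set is dim, and the probe set of Defa30 and Defa24, at 0.14 and −0.02 in the male and female pairs. Outside the members they were Hnf4a on 3 of its 4 probe sets, at 0.62 and −0.16 on the brightest, 0.51 and −0.24, and 0.23 and −0.07, the pancreatic acinar gene Cpa1, at 1.03 and −0.08, and the smooth muscle gene Myh11, at −0.22 and 0.66, male pair before female pair. The rest were further probe sets of genes named by another one. In the same order these were Timp3, at −0.11 and 0.33 on one and −0.33 and 0.42 on the other, and Cyth3, at −0.13 and 0.19. Cldn1 was at −0.50 and 0.12, and Ids at 0.80 and −0.44, −0.037 and 0.41, and 0.092 and −0.17. The further Agr2 probe set, counted apart from the 14, was at 0.55 and −0.009. Among further probe sets, the 14 cover only those of Hnf4a, Hnf4g, Cd24a, Mmp9, Timp3 and the genes nearest Mmp7. Further probe sets of Apoa4, Des, Cela3b, Trpm5, Csf1r and Dclk1 also had opposite signs in the pairs and are not counted.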

How the results depend on the processing

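Of 91 alternative values of the null minus control difference over the 7 members, 88 kept the sign reported. The 3 that turned belonged to the probe set of Defa30 and Defa24. The settings with no filter, no trend and sex as a block left the difference of each member unchanged, so they do not test its sign. The values from each pair alone and from leaving out an animal reuse the same arrays. The count of 88 is therefore a description of members proposed from this contrast. Mmp7 had a difference between 0.96 and 1.48 over its 13 alternatives and an adjusted p in limma of 0.0127 to 1 over the 11 that gave one, and it passed only with sex as a block. limma called 2 probe sets in null against control, 1 without a trend in the prior, 29 with sex as a block, and 0 to 35 when 1 animal was left out. The count of 0 was without the control male, where 205 had an unadjusted p under 0.05 in limma, and the counts were 35 without the null male, 10 without the null female and 3 without the control female. For male against female, limma called 84, and 183 with no normalization between arrays and 132 with a pseudocount of 1. It called 168 with no filter, 3 with no trend and 6 with no group covariate. The cause of these shifts was not tested. The male minus female difference turned sign to 0.008 for Itln1 and to 0.004 for Lyz1 1439426_x_at with no normalization between arrays. It turned to 0.17 for Itln1, 0.16 for Lyz1 1436996_x_at and 0.166 for Lyz1 1439426_x_at with scaling to a common median. Leaving out an animal from male against female with the group in the model leaves no residual degrees of freedom and was not run. The median over the members kept was −0.023 without the null male.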

Other observations

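Other cell types were described by the same kind of list. Of 7 crypt stem and cycling cell genes, 5 had a probe set and passed the filter, with a median null minus control log2 difference of 0.11, Pcna, a DNA replication clamp, at 0.12 and the proliferation marker Mki67 at −0.25. Of 7 enteroendocrine genes all passed the filter, with a median of 0.36, the hormone genes Cck and Gip standing at 0.71 and −0.61. The 3 tuft cell genes had a median of −0.11, with the ion channel gene Trpm5 at 0.29 and the kinase gene Dclk1 at −0.17. Of the pancreatic acinar genes, 5 of 7 passed the filter with a median of 0.25, and pair medians of 0.348 (males) and −0.075 (females). The digestive protease genes Cela3b and Cpa1 were at 0.48 and 0.475. Other Cela3b probe sets, including some that failed the filter, were at −0.07 to 0.95. The 5 smooth muscle genes had a median of 0.19, with pair medians of −0.22 (males) and 0.66 (females), with the filament gene Des at 0.50 and the myosin gene Myh11 at 0.22. limma called none of the genes of these lists.

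Cd24a was higher in both null animals than in both controls on each of its 3 probe sets, with differences of 0.62 (SE 0.13), 0.72 (SE 0.18) and 0.69 (SE 0.19).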
